A study of Rattus norvegicus with 24 samples.

Results

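Anks6 and 5 genes whose products are known to work with it, Invs, Nek8, Anks3, Bicc1 and Hif1an, were followed through the kidneys of PKD/Mhm (Cy/+) rats. They were chosen by name, as the gene that is mutated in this rat line and its partners, and were 6 of the 17334 genes measured. All 6 had counts in each of the 24 kidneys and passed the filter on low counts. Anks6, also called SamCystin, carries ankyrin repeats and a sterile alpha motif (SAM) domain, and the line carries a missense change in it. In its heterozygous form the change gives a slowly growing cystic kidney. The deposited tables hold 1 value per gene, so the mutated and the normal copy of Anks6 were counted together.

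The primary cilium of a kidney tubule cell has near its base a segment called the inversin compartment. Inversin (Invs) is its scaffold, Nek8 is a protein kinase that is anchored there, and Anks6 binds Nek8 and is an activator of it. Anks3 is a SAM protein that joins Anks6 to Bicc1, an RNA-binding protein, and Hif1an is an asparagine hydroxylase that acts on ankyrin repeats. Changes in Invs, Nek8 and Anks6 cause nephronophthisis in humans, and loss of Bicc1 gives cystic kidneys in mice.

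The RNA came from the left kidneys of male Cy/+ rats aged 8 months, in 4 groups of 6. Control animals (Ctrl) were untreated. The treated animals had been given, monthly for 6 months, human skin-derived ABCB5+ stromal cells intraperitoneally (i.p., label ipABCB5) or intravenously (i.v., label ivABCB5), or a conditioned medium (CoCM). The CoCM was the supernatant of ABCB5+ cells grown together with stimulated macrophages derived from THP-1, a human monocytic line, and the sources differ on whether it was given i.p. or i.v. All groups carried the Cy allele, which was recognised by palpation, and no animal without it was in the comparison. Animal numbers ran from 1 to 24 in Ctrl and from 26 to 43 in the treated groups, so an effect of that order cannot be told apart from treatment in any comparison with Ctrl. Whole kidney was sequenced, so fewer cells of a type and less RNA per cell cannot be told apart.

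Totals were 9304630 to 14125457 estimated counts per kidney. Animals CoCM 39, i.p. 38, i.v. 36 and i.v. 37 stood apart from the other 20 on the first principal component, which held 56.3% of the variance. In these 4 kidneys the summed level of 5 injured-tubule markers (Havcr1, Lcn2, Spp1, Vcam1, Sox9) was 517 to 909 CPM (counts scaled to library size), against 7035 to 13900 CPM in the others. That of 7 proximal tubule markers was 7446 to 12330 CPM against 1868 to 6687 CPM, and that of 5 macrophage markers 40.4 to 124 CPM against 192 to 543 CPM. Proximal tubule markers were thus present in every kidney, and no gene of these 3 lists was at 0 in every kidney. Tests of the members used all 24 kidneys unless stated, and the larger moves without these 4 are given beside them.

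On the TPM scale (counts scaled to transcript length and library size), which allows genes to be compared per transcript length, Bicc1 was the most abundant of the 6 transcripts at 45.8 ± 19.0 TPM (SD, n = 24). Anks3 followed at 26.5 ± 3.31 TPM, Anks6 at 19.0 ± 3.60 TPM and Nek8 at 15.04 ± 2.53 TPM. Hif1an at 9.39 ± 3.37 TPM and Invs at 4.13 ± 0.656 TPM were lowest. The scaffold of the compartment was thus the least abundant of these transcripts, and the RNA-binding protein the most. Within single kidneys Bicc1 was above Anks3 in 21 of 24, Anks3 above Anks6 in 23, Anks6 above Nek8 in 22, Nek8 above Hif1an in 23 and Hif1an above Invs in 24. The mean and SD ranges of Bicc1 and Anks3 overlapped, as did those of Anks6 and Nek8 and of Nek8 and Hif1an, while the ranking of the means was the same without the 4 animals that stood apart. Among all genes Bicc1 lay at percentile 79.9 of mean TPM, Anks6 at 62.1 and Invs at 39.2.

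**Figure D1:**
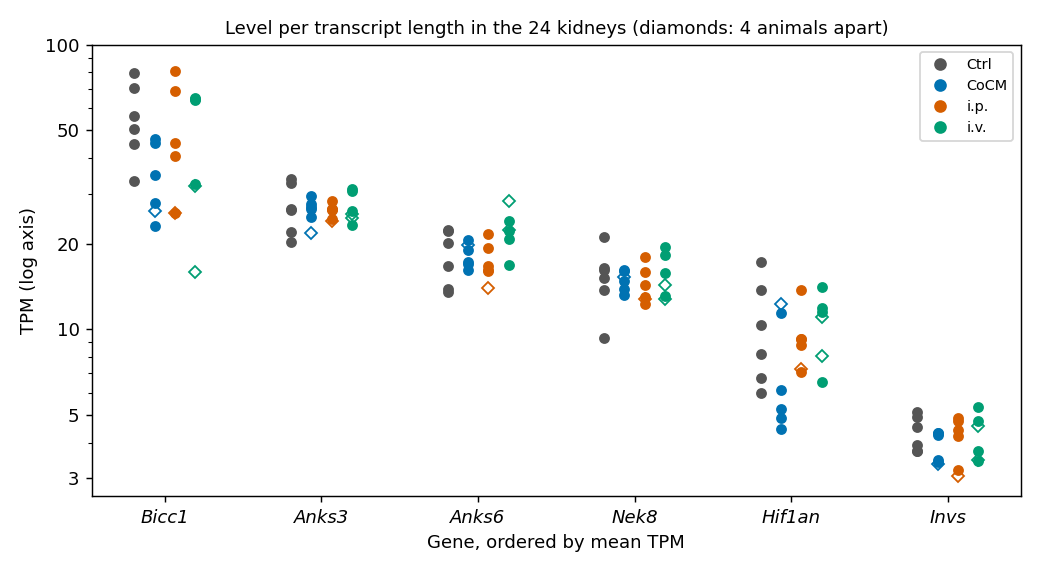
TPM of each gene on a log axis, 1 point per kidney (n = 6 per group), with genes ordered by mean TPM. Hif1an lay above Invs in 24 of 24 kidneys, and Bicc1 and Hif1an spread most widely.

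The 6 transcripts differed in how much they varied between animals of 1 group. The pooled within-group coefficient of variation of CPM was 9.36% for Anks3, 11.5% for Invs and 12.5% for Nek8. It was 32.7% for Bicc1 and 33.4% for Hif1an. Anks6 stood between, with 21.3% over all animals and 13.4% without the 4 animals apart. Counting error was below this spread in each case, with 3.65% at the median count of Anks6, 2.68% for Bicc1 and 9.98% for Hif1an, which had only 45 to 190 counts per kidney. Counts of Invs and Nek8 were fractional in all 24 kidneys, and those of the other 4 genes were whole. Whether reads shared out between genes gave the fractions was not tested.

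**Figure D2:**
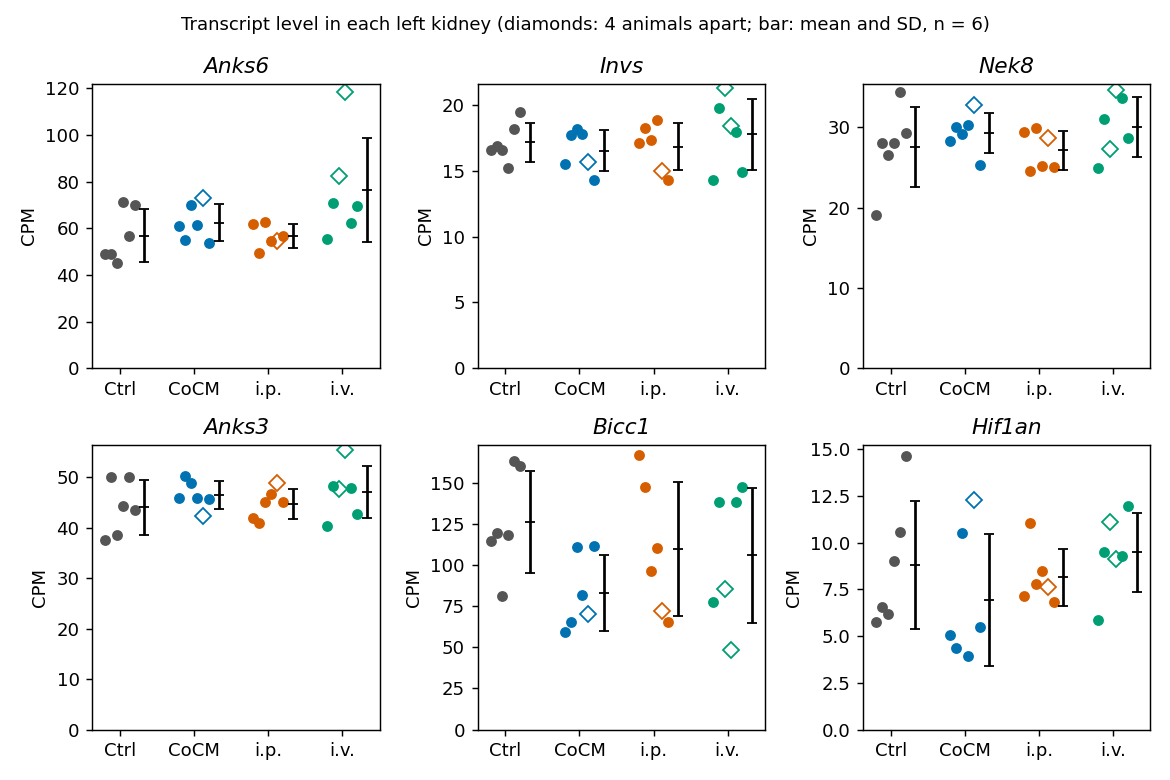
CPM of each gene in each left kidney by group, with the mean and SD (n = 6 per group) beside the points and open diamonds for the 4 animals apart. The highest Anks6 value, 118 CPM, was in 1 of those 4 animals, and 3 of 6 CoCM kidneys had less Bicc1 than any Ctrl kidney.

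The first question was whether any treatment moved these transcripts relative to untreated kidneys. The 3 comparisons share the same 6 Ctrl kidneys. No member passed an adjusted p of 0.05 in edgeR's quasi-likelihood test. The lowest adjusted p of any member was 0.396 for CoCM, 0.978 for i.p. and 0.673 for i.v. cells against Ctrl. Over all 12778 genes tested the share that passed was 0.00783% for CoCM, 1 gene, and 0% for both cell groups. At an unadjusted p under 0.05, 1 of 6 members was past the threshold for CoCM (Bicc1), 0 for i.p. and 1 for i.v. (Anks6). The shares over all genes at that threshold were 11.9% (1523 genes), 1.77% (226 genes) and 5.78% (738 genes). DESeq2 called 81, 0 and 1 genes in these 3 comparisons and no member.

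Anks6 itself had 45.3, 52.9 and 71.2 CPM as the lowest, median and highest value in Ctrl. In CoCM these were 53.5, 61.2 and 73.1 CPM, in i.p. 49.3, 55.6 and 62.9 CPM, and in i.v. 55.4, 70.2 and 118 CPM. All groups overlapped, and 2 of 6 i.v. kidneys, animals 36 and 37, were above the Ctrl range. Their 82.2 and 118 CPM came from kidneys that stood apart, whose proximal tubule sums were 10700 and 12330 CPM. The other 2 kidneys apart had 73.1 CPM of Anks6 (CoCM 39) and 54.5 CPM (i.p. 38), with proximal tubule sums of 8801 and 7446 CPM. The part of these markers in the Anks6 level was not tested.

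Group means of Anks6 were 56.9 ± 11.3 CPM for untreated animals, 62.4 ± 7.88 after CoCM, 56.6 ± 5.05 after i.p. and 76.4 ± 22.4 after i.v. cells (SD, n = 6 each). The i.v. group exceeded Ctrl by a log2 fold change of 0.43 (SE 0.15, 95% interval 0.12 to 0.74), with an unadjusted p of 0.00938 and an edgeR adjusted p of 0.673. A two-sided exact permutation test on the 12 kidneys gave p = 0.0693, where 0.00216 was the smallest p the design allows. Without the 4 animals apart the log2 difference was 0.18 and the exact permutation p was 0.286. Leaving out i.v. animal 37 alone gave 0.25. For CoCM the log2 fold change was 0.13 (interval -0.18 to 0.44) and for i.p. cells -0.01 (interval -0.32 to 0.30). Both of these intervals stayed within 0.44 of 0 on the log2 scale, and without the 4 animals apart the CoCM difference was 0.07.

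Nek8, the kinase partner, was close to level across groups. Its lowest, median and highest values were 19.0, 28.01 and 34.5 CPM in Ctrl and 25.3, 29.6 and 32.8 CPM in CoCM. They were 24.6, 26.98 and 29.9 CPM in i.p. and 25.0, 29.9 and 34.7 CPM in i.v. The lowest kidney was Ctrl 1, and each group overlapped every other. Log2 fold changes against Ctrl were 0.09 for CoCM (interval -0.14 to 0.32), -0.02 for i.p. (-0.25 to 0.21) and 0.12 for i.v. cells (-0.10 to 0.35).

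Invs, the scaffold, lay between 14.3 and 21.3 CPM in all 24 kidneys. Its median was 16.7 CPM in both the Ctrl and the CoCM group, 17.2 CPM after i.p. cells and 18.2 CPM after i.v. cells. Differences from Ctrl were -0.05 (-0.27 to 0.16), -0.03 (-0.24 to 0.19) and 0.05 (-0.16 to 0.26) on the log2 scale for CoCM, i.p. and i.v. Without the 4 animals apart the i.v. difference was -0.04.

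Anks3, the SAM protein between Anks6 and Bicc1, had the tightest values, from 37.5 to 55.5 CPM over all kidneys. Medians were 43.9 CPM for Ctrl, 45.8 for CoCM, 45.1 after i.p. cells and 47.8 after i.v. cells. The log2 differences from Ctrl were 0.08 (-0.09 to 0.25), 0.02 (-0.15 to 0.19) and 0.10 (-0.07 to 0.27) in the same order. For Anks3 all 3 intervals stayed within 0.27 of 0 on the log2 scale, and without the 4 animals apart the i.v. difference was 0.02.

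Bicc1, the RNA-binding partner, had 81.0, 119 and 163 CPM as lowest, median and highest values in Ctrl. In CoCM these were 59.1, 75.9 and 112 CPM, in i.p. 65.6, 103 and 167 CPM, and in i.v. 48.3, 112 and 147 CPM. Of the CoCM kidneys, 3 of 6 lay below the Ctrl range and the other 3 within it. Means were 126 ± 31.02 CPM for Ctrl, 83.2 ± 23.1 for CoCM, 110 ± 40.6 for i.p. cells and 106 ± 40.8 for i.v. cells (SD, n = 6 each).

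The CoCM difference in Bicc1 was -0.60 on the log2 scale (SE 0.27, interval -1.16 to -0.04), with an unadjusted p of 0.0361 and an edgeR adjusted p of 0.396. The exact permutation test gave p = 0.0152, and p = 0.0303 without animal CoCM 39. On log2(TPM + 1) the exact permutation p was 0.0238. Such exact tests numbered 30 with all animals, 30 without the 4 animals apart and 30 on log2(TPM + 1), and none was adjusted. The i.p. and i.v. differences from Ctrl were -0.20 (-0.75 to 0.36) and -0.25 (-0.80 to 0.30). Without the 4 animals apart they were -0.09 and -0.01, and the exact permutation p for i.v. went from 0.340 to 0.991. Leaving out i.v. 37 alone gave -0.11, and sample quality weights (limma voom) turned the i.v. difference to 0.09. In the i.v. group the lowest Bicc1 value, 48.3 CPM, was in animal 37, the kidney with the most Anks6.

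Hif1an, the hydroxylase, had 5.74, 7.80 and 14.7 CPM as lowest, median and highest values in Ctrl and 3.94, 5.26 and 12.3 CPM in CoCM. In i.p. these were 6.81, 7.72 and 11.0 CPM and in i.v. 5.88, 9.40 and 11.98 CPM. In CoCM 4 of 6 kidneys were below the Ctrl range, while animals 34 and 39 had 10.51 and 12.3 CPM. The log2 differences from Ctrl were -0.35 (-0.92 to 0.23), -0.10 (-0.67 to 0.46) and 0.11 (-0.46 to 0.68) for CoCM, i.p. and i.v. Each of these intervals reaches past 1.5-fold in at least 1 direction. Without the 4 animals apart the CoCM difference was -0.60, with an edgeR adjusted p of 0.279, and the exact permutation p went from 0.268 to 0.0952. It was -0.59 without CoCM 39 alone, -0.53 without CoCM 34, -0.23 without CoCM 35 and -0.17 without Ctrl 24, so single animals moved it by over 1.5 times. The i.v. difference was 0.06 without the 4 animals apart.

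**Figure D3:**
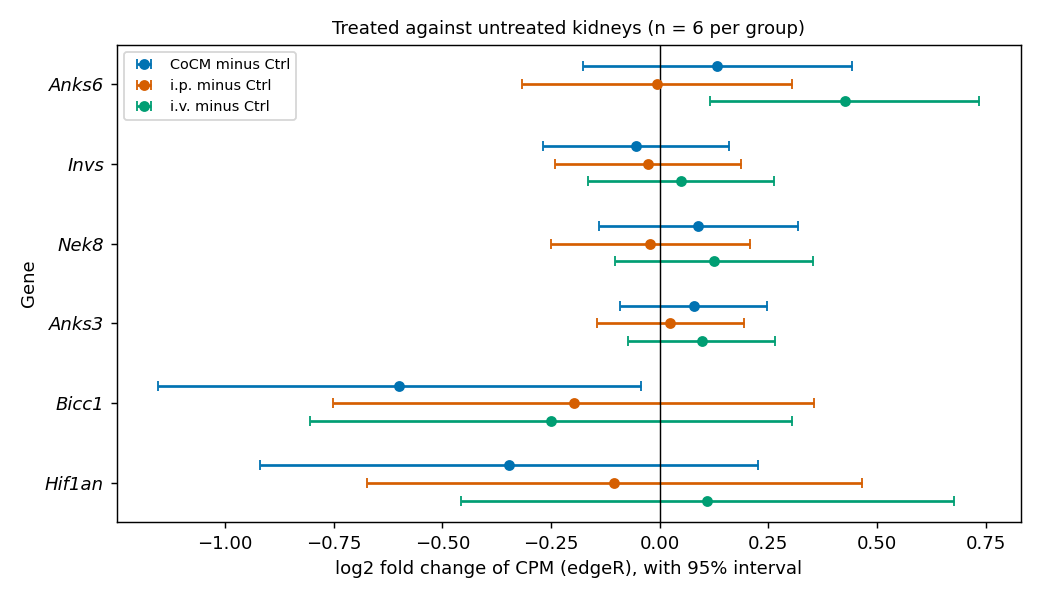
Log2 fold change of each gene against Ctrl from the edgeR fit, with 95% intervals (n = 6 per group). Of the 18 intervals, 2 leave out 0, that of Anks6 in i.v. and that of Bicc1 in CoCM, and neither passed the adjusted test.

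The second question was whether the route of injection, or medium in place of living cells, made a difference. Between i.p. and i.v. cells, 0% of all genes passed the adjusted test and 2.14% (274 genes) had an unadjusted p under 0.05. Anks6 was the 1 member of 6 at that level. In i.p. kidneys it was below its i.v. level by a log2 fold change of -0.43 (SE 0.15, interval -0.74 to -0.12), with an unadjusted p of 0.00853 and an edgeR adjusted p of 0.9999. The exact permutation p was 0.0195 with all animals and 0.143 without the 3 of them that stood apart, and leaving out i.v. 37 alone left a log2 difference of -0.26. The other 5 members differed between the routes by -0.21 to 0.05 on the log2 scale, and by -0.14 to 0.05 without the animals apart, where the signs of Invs and Bicc1 turned.

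Between CoCM and the mean of both cell groups, 0% of all genes passed the adjusted test and 7% (894 genes) had an unadjusted p under 0.05, with 0 of 6 members among them. Bicc1 was at -0.37 (interval -0.86 to 0.11) and Hif1an at -0.35 (-0.85 to 0.15), and without the 4 animals apart at -0.52 and -0.59. The Hif1an value was -0.23 without CoCM 35 alone and -0.58 without CoCM 39 alone. For Hif1an the exact permutation p, unadjusted, was 0.0723 with all animals and 0.027 without the 4 apart, where the edgeR adjusted p was 0.337. A single test for any difference among the 4 groups passed 0% of genes after adjustment and 4.71% (602 genes) before it. Anks6 had an unadjusted p of 0.0249 and an adjusted p of 0.817 in it, and Bicc1 of 0.198 and 0.817. DESeq2 called 1 gene between the routes and 3 between CoCM and cells.

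Whether the 6 transcripts varied together from animal to animal was asked over the 20 kidneys of the main cluster, since 4 kidneys were too few for a value of their own. On log2 CPM, 3 of 15 pairs had a Spearman rho that passed an adjusted p of 0.05 over the pairs. They were Bicc1 with Hif1an, Anks3 with Nek8, and Anks6 with Nek8.

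Bicc1 and Hif1an rose and fell together with r = 0.746 (permutation adjusted p = 0.00375) and rho = 0.720 (permutation adjusted p = 0.0099). Without the 2 animals with the most extreme Bicc1 values r was 0.669, and on deviations from the group means r was 0.659 and rho 0.650. As background, 12.8% of 11762 other genes were closer to Bicc1 than Hif1an was, and 9.29% were closer to Hif1an than Bicc1 was.

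The Nek8 transcript was correlated with those of both Anks3 and Anks6. Anks3 and Nek8 had r = 0.679 (permutation adjusted p = 0.00518) and rho = 0.582 (permutation adjusted p = 0.0431), and r was 0.538 without the 2 most extreme animals. Anks6 and Nek8 had rho = 0.576 (permutation adjusted p = 0.0431) and r = 0.529 (permutation adjusted p = 0.0708), with r at 0.582 without the 2 most extreme animals. Only 3.55% of genes were closer to Anks6 than its kinase partner Nek8, and 2.75% were closer to Nek8 than Anks6. Likewise 4.3% of genes were closer to Anks3 than Nek8 was, and 2.5% were closer to Nek8 than Anks3 was. Anks6 was not detectably correlated with Invs (rho = 0.239, permutation adjusted p = 0.420), Bicc1 (rho = 0.265, permutation adjusted p = 0.391) or Anks3 (rho = 0.165, permutation adjusted p = 0.557). With Hif1an it had rho = 0.486 (permutation adjusted p = 0.0883) on log2 CPM. On deviations from the group means that pair reached rho = 0.559 (permutation adjusted p = 0.0415) and r = 0.607 (permutation adjusted p = 0.0211). By rho, 4 of 15 pairs passed on these deviations. The permutations treated the 20 deviations as independent, although the group means had been taken out first, which makes these p-values too small. How many pairs would pass with that allowed for was not tested.

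**Figure D4:**
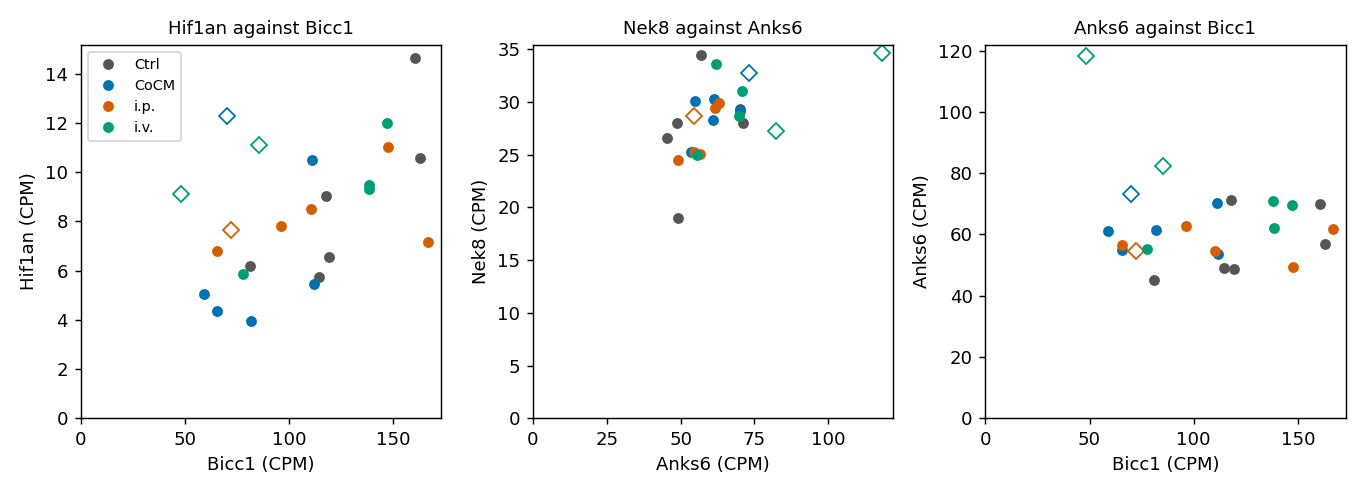
CPM of Hif1an against Bicc1, Nek8 against Anks6, and Anks6 against Bicc1, 1 point per kidney, with open diamonds for the 4 animals apart, which were left out of the correlations. Bicc1 and Hif1an rose together over the 20 filled points (r = 0.746), while i.v. 37 combined the highest Anks6 with the lowest Bicc1.

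The scale mattered for these pairs. On log2(TPM + 1) 14 of 15 pairs passed, with a median rho of 0.618 against 0.374 on log2 CPM. The 2 scales differ by 1 factor per kidney, which ran from -0.34 to 0.22 in log2 units and was lowest in i.v. 37. That factor is shared by all genes of a kidney, so it adds a common part to each pair on the TPM scale. Against Ctrl it moved the median of all genes in CoCM to -0.10 on log2(TPM + 1), and the fold changes above are on the CPM scale, where that median was 0.01.

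For Bicc1 and Hif1an and for Anks3 and Nek8, the 2 pairs that passed by both r and rho, the 150 bases before the start of their genes are shown, from RefSeq (assembly GRCr8). Sequences were matched for 5 of the 6 genes, all but Anks6. Capitals mark the motifs searched on both strands: the CCAAT box (CCAAT), the GC box (GGGCGG), the core of the hypoxia response element (ACGTG), the TEAD core (GGAATG) and the left arm of the X-box of ciliary genes (GTTGCC). The windows are chr20:17448615-17448764 (plus strand) for Bicc1, chr1:253368274-253368423 (plus strand) for Hif1an, chr10:11121411-11121560 (plus strand) for Anks3 and chr10:63570489-63570638 (minus strand) for Nek8.
Bicc1: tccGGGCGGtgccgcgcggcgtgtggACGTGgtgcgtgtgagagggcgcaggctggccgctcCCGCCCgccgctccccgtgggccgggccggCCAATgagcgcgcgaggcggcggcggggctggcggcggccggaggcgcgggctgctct
Hif1an: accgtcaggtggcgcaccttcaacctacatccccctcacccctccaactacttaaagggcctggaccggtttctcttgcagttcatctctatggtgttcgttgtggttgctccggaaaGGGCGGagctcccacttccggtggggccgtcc
Anks3: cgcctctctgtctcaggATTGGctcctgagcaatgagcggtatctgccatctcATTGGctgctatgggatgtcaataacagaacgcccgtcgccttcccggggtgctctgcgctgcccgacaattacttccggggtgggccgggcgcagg
Nek8: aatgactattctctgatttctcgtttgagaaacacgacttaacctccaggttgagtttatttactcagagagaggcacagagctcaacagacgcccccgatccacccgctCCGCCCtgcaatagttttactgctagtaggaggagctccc

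The Bicc1 window was 82.7% G and C, against a median of 53.3% over the windows of all genes. It held a GC box 147 and 88 bases before the start, ACGTG at 124 bases and CCAAT at 58 bases. Hif1an shared with it only the GC box, at 32 bases before the start. Anks3 held CCAAT on the other strand (ATTGG) at 133 and 97 bases, and Nek8 a GC box on the other strand (CCGCCC) at 40 bases, so this second pair shared none of the 5 motifs in these windows. Over 27457 genes the same window held a GC box in 27.8%, CCAAT in 23.7%, ACGTG in 11.2%, GGAATG in 7.13% and GTTGCC in 6.34%. Such a match is a description, not a binding site.

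The ratio of Anks6 to Bicc1, on the TPM scale, was looked at after the values were seen and carries no test. Its lowest, median and highest values were 0.253, 0.314 and 0.438 in Ctrl and 0.347, 0.578 and 0.756 in CoCM. They were 0.242, 0.417 and 0.626 in i.p. and 0.325, 0.445 and 1.77 in i.v. Animal i.v. 37 was the only kidney of 24 with more Anks6 than Bicc1.

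The genes whose level followed Anks6 most closely over the 20 kidneys, by Spearman rho on log2 CPM among 11763 genes, were Slc11a2 (0.883), Mlxipl (0.866), Mapt (0.848), Ric3 (0.847) and Neurl4 (0.838). Slc11a2 is an iron transporter, Mlxipl a glucose-responsive transcription factor and Mapt the microtubule protein tau. Those closest to Bicc1 were Mfhas1 (0.985), Crim1 (0.970), Shroom4 (0.967), Xrn1 (0.964) and Usp22 (0.964). Crim1 is a membrane protein that binds bone morphogenetic proteins and Xrn1 is an RNA exonuclease. None of the 6 members was among the 5 genes closest to Anks6 or to Bicc1. These values are descriptions, from kidneys that share their cell makeup across genes.

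The level of each member was also set against the summed markers of 11 cell types over the same 20 kidneys, 66 pairs in all. Anks6 rose with the 7 proximal tubule markers, r = 0.7096 (permutation adjusted p = 0.0231) and rho = 0.707 (permutation adjusted p = 0.048), and r was 0.627 without the 2 most extreme animals. The other 5 members had rho from -0.15 to 0.34 with that list, and none passed. How many of all genes follow these markers as closely was not examined, so the relation is not shown to be particular to Anks6.

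Anks3 fell with the 5 fibroblast markers (Pdgfra, Pdgfrb, Col1a1, Col3a1, Dcn), r = -0.672 (permutation adjusted p = 0.0231) and rho = -0.654 (permutation adjusted p = 0.048). Nek8 fell with the 5 macrophage markers, r = -0.643 (permutation adjusted p = 0.0231) and rho = -0.645 (permutation adjusted p = 0.048). Invs passed with fibroblast markers by rho alone (rho = -0.663, permutation adjusted p = 0.048, against r = -0.579, permutation adjusted p = 0.0734). Nek8 passed with them by r alone (r = -0.659, permutation adjusted p = 0.0231, against rho = -0.614, permutation adjusted p = 0.068). No pair of Bicc1 or Hif1an with any of the 11 lists passed, and the 5 relations named here were those that passed by r or rho. Fibroblast sums ranged from 785 to 3284 CPM over these 20 kidneys. With all animals they were 903 to 3284 CPM for Ctrl, 195 to 2644 for CoCM, 299 to 2188 after i.p. cells and 484 to 2216 after i.v. cells, and the lowest value of each treated group was that of an animal apart. The part of cell makeup in the members' levels was not tested. The share of all genes that would pass with these lists was not examined, so these relations cannot be set against that of other genes.

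The other genes of the pathway were counted from 4 lists. Of the genes of the inversin compartment and nephronophthisis, 21 of 23 were measured, and Cep164 and Cc2d2a were not analysed here. None of the 21 passed the adjusted test against Ctrl. For CoCM 6 of 21 were higher, with a median log2 fold change of -0.09 against 0.01 over all genes. For i.p. 10 and for i.v. 12 of 21 were higher, with medians of 0.00 and 0.04 against 0.00 and 0.01.

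Among the genes of that list with the smallest p in CoCM were Cep290, a transition zone protein, and Nek7, a kinase related to Nek8. Cep290 had 14.5 ± 2.26 CPM in Ctrl and 12.1 ± 0.876 in CoCM (SD, n = 6 each), a log2 difference of -0.26 with an edgeR adjusted p of 0.407. Nek7 had 22.8 ± 5.48 and 16.4 ± 5.86 CPM (-0.48, edgeR adjusted p 0.448). In i.p. kidneys the 3 genes with the smallest p were Cep290 (log2 fold change -0.18), Iqcb1 (0.15) and Sdccag8 (-0.14), each at an adjusted p of 0.978. In i.v. kidneys they were Ttc21b (0.86), a protein of retrograde intraflagellar transport, Traf3ip1 (0.26) and Iqcb1 (0.16), each at an adjusted p of 0.673. Ttc21b ranged from 38.8 to 168 CPM in i.v. and from 30.1 to 86.1 CPM in Ctrl.

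Bicc1 is known to act on the transcripts of Adcy6, Pkia and Pkd2. In CoCM, where Bicc1 had the largest difference, Pkd2, which encodes polycystin-2, had the smallest p of the 3. It had 150 ± 11.8 CPM in Ctrl and 120 ± 9.09 in CoCM, a log2 difference of -0.32 with an edgeR adjusted p of 0.290, and the CoCM range of 104 to 129 CPM lay below the Ctrl range of 135 to 170 CPM. Over all genes tested, 0.524% had every CoCM kidney below every Ctrl kidney. In i.p. and i.v. kidneys Pkd2 was again first, at -0.18 in both. Adcy6 went the other way, with log2 differences from Ctrl of 0.01 (CoCM), 0.18 (i.p.) and 0.06 (i.v.). Pkia was lower, at -0.53, -0.19 and -0.30 in the same order. The median of the 3 transcripts, -0.32 in CoCM and -0.18 in each cell group, was the value of Pkd2 itself.

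Of 6 known substrates of Hif1an, 5 were tested and Asb4, at 0 to 0.2204 CPM, was not. Epas1, which encodes HIF-2 alpha, had the smallest p in CoCM, with 138 ± 27.9 CPM in Ctrl, 90.1 ± 32.8 in CoCM, a log2 difference of -0.62 and an edgeR adjusted p of 0.358. Hif1a was first in i.p. (-0.10) and Nfkb1 in i.v. (-0.24). In CoCM 1 of 5 was higher than in Ctrl, in i.p. 0 of 5 and in i.v. 1 of 5, and none passed.

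Of 15 genes of the Hippo pathway, which Nek8 and other nephronophthisis proteins are known to touch, 14 were tested and Tead4 was not analysed here. None passed, with 3, 0 and 4 of 14 higher than Ctrl for CoCM, i.p. and i.v., and medians of -0.18, -0.15 and -0.09. The genes with the smallest p were the kinase Lats1 in CoCM (-0.30, edgeR adjusted p 0.383), the Yap target Ccn1 in i.p. (-0.84, adjusted p 0.978) and the kinase Stk3 in i.v. (-0.29, adjusted p 0.673).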

How the data were processed

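RNA of the left kidneys of 24 rats was sequenced by the authors. Per the labels the reads were trimmed with Trim Galore 0.6.4 and quantified with kallisto against rn6. The authors deposited estimated counts and TPM for 17334 Entrez gene IDs, and 17179 were given symbols from RefSeq (GRCr8). The methods name a human transcript annotation package beside the rat genome, and how IDs were assigned was not given in the sources used here. For each member the ratio of count to TPM, scaled within each kidney, varied by 0.325% to 0.416% (CV) between kidneys. The 6 members and all gene and marker lists were chosen with earlier results of these data known.

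Estimated counts were rounded and tested with edgeR 4.0.16 (R 4.3.3, quasi-likelihood F-test, TMM, filterByExpr, all 24 animals, group as the only term) on 12778 genes, with Benjamini-Hochberg adjustment over all of them. CPM values were TMM-normalised. Totals of 9304630 to 14125457 make 3 counts equal to 0.322 CPM in the smallest library, and the number of animals limits precision more than depth. Single members were tested with two-sided exact permutation tests over all divisions of the animals compared (SciPy 1.17.1). These were 924 divisions for 2 groups of 6 animals, and more for CoCM against both cell groups, 6 against 12 animals. There were 30 such tests with all animals, repeated without the 4 animals apart and on log2(TPM + 1). Correlations were tested with 100000 permutations (smallest p 1e-05) in the 20 animals of the main cluster. Named pathway genes were those with the smallest p in each comparison with Ctrl, 3 from the nephronophthisis list and 1 from each other list, and 1 gene so chosen is not reported here. The 5 genes closest to Anks6 and to Bicc1 were taken from genes with a mean log2 CPM over 1 and a symbol. On simulated CoCM and Ctrl counts (12726 genes), edgeR found 54% of genes changed 2-fold and 99% of those changed 4-fold. Its false calls were 3.77%. DESeq2 1.42.0 found 80.5% of the changed genes, with 12.02% false calls. That 80.5% was not split by fold change, so it cannot be set beside the 54% or the 99%. Alternatives were DESeq2, median-ratio size factors, other filters, only the groups compared, limma 3.58.1 on log2(TPM + 1) and log2(TPM + 0.1), voom with sample quality weights, and leaving out animals. Replicates were separate animals, and the lowest chi-square per degree of freedom between 2 of them was 10.4.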

Additional observations from a re-analysis of the deposited data

How the results depend on the processing

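No member passed an adjusted p of 0.05 in any comparison under any of the 9 alternatives or with any single animal left out. Of 270 member fold changes recomputed under the alternatives, 248 kept their direction. The number of genes called between CoCM and Ctrl, 1, was 81 with DESeq2, 183 with voom quality weights, and 0 with limma on log2(TPM + 1), limma on log2(TPM + 0.1), only the groups compared, or without the 4 animals apart. It was 0 to 30 with single animals left out: 0 without Ctrl 12, 18, 22 or 24 or CoCM 26, 27 or 39, 2 without i.v. 37 and 30 without Ctrl 23. DESeq2 called 1 gene for i.v. against Ctrl, 1 for i.p. against i.v. and 3 for CoCM against cells, where voom called 2. The cause was not tested.

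The log2 differences below changed sign, the widest moves being those of Bicc1 with voom weights, from -0.25 (i.v.) and 0.05 (i.p. against i.v.). On log2(TPM + 1) and log2(TPM + 0.1) they were, for CoCM against Ctrl, Anks3 -0.0219 and -0.0221 and Nek8 -0.00357 and -0.00143. On the same scales they were Anks3 -0.0296 and -0.0299 for i.p., Invs -0.0358 and -0.0446 for i.v., and Anks3 -0.0134 and -0.0139 for CoCM against cells. With voom weights they were Invs 0.0284 (CoCM), Anks6 0.0275, Invs 0.0725, Nek8 0.0266 and Hif1an 0.00296 (i.p.), Bicc1 0.0948 (i.v.) and Bicc1 -0.275 (i.p. against i.v.). Without the 4 animals apart they were Anks6 0.00741 and Invs 0.00745 (i.p.), Invs -0.0409 (i.v.), and Invs 0.0484 and Bicc1 -0.0827 (i.p. against i.v.). With single animals left out, 696 of 720 fold changes kept their sign. The ranges that crossed 0 were, for i.p., Anks6 -0.0643 to 0.068, Anks3 -0.0179 to 0.0582, Invs -0.0685 to 0.0145, Nek8 -0.108 to 0.0466 and Hif1an -0.23 to 0.0942. They were Invs -0.0111 to 0.0856 for i.v., Bicc1 -0.103 to 0.18 for i.p. against i.v., and Anks6 -0.119 to 0.0157 and Anks3 -0.0143 to 0.0561 for CoCM against cells. The Spearman correlation of Anks3 and Bicc1, -0.08 on log2 CPM, was 0.564 on log2(TPM + 1) and 0.116 on deviations from group means, and that of Anks3 and Hif1an, -0.03, was 0.334 and 0.296.

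No paired analysis was possible because animal numbers were not shared between groups.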
